A study of Homo sapiens with 2 samples.

Results

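The potassium, calcium and sodium channel genes were described here in 2 RNA-seq libraries made from H1-derived Stage 6 cells. Members were the rows of both deposited gene tables whose gene symbol has the form of a potassium channel gene (KCN followed by letters and a number), a voltage-gated calcium channel gene (symbols that begin with CACN, for pore or auxiliary subunits) or a voltage-gated sodium channel gene (SCN followed by a number and A or B). Of 55797 genes in the tables, 131 were members, of which 91 are potassium, 26 calcium and 14 sodium channel genes. The selection rule left out 2 other potassium channel genes with symbols of this form, which were not analysed here. The rule used the symbol alone and no measured value. H1 is an established human embryonic stem cell line, and Stage 6 is a late stage of a stepwise pancreatic differentiation in which insulin-expressing cells are present among other cells. One portion of the cells was left unfixed and unsorted, and its RNA was extracted with a column kit (live). The other portion was fixed in 4% paraformaldehyde, permeabilized, stained with antibodies and mock sorted, so that no cells were selected, after which RNA was extracted with a modified kit for fixed material (processed). Cell line, differentiation and stage were shared by both groups, and each group was 1 sample, so no difference described below has a replicate check and no p-value is given.

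Ion channels set the membrane voltage and let selected ions cross. Potassium channels hold the resting voltage and end electrical activity, whereas voltage-gated sodium channels carry the upstroke of the action potential in many excitable cells and voltage-gated calcium channels let in the calcium that triggers secretion. In pancreatic beta cells, closure of potassium channels after glucose metabolism depolarizes the membrane, calcium channels open, and insulin granules are released. Most channels are assembled from pore-forming subunits and auxiliary subunits, which do not form a pore themselves but alter the gating or the traffic of the pore.

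The pore-forming potassium channel genes encode a shared signature, written in bases that differ between genes. The selection rule did not use this sequence, but the symbols are those given to genes of potassium pores. Its presence therefore describes the grouping and is not a result of these libraries. A potassium pore is lined by the signature of the selectivity filter, searched for here in the reading frame as a threonine or serine codon, any codon, a glycine codon, a tyrosine or phenylalanine codon and a glycine codon. In 1 complete coding sequence per gene from GENCODE release 44 on GRCh37, the signature was present in 76 of 76 potassium pore genes and in 0 of 54 other members with a usable coding sequence, which are the auxiliary, calcium and sodium channel genes. Among all 19718 coding genes it was present in 2.84%. Of the 15 two-pore domain genes, 11 held it at 2 sites and the other genes of that family at 1 site. Sites of members with high levels in 4 pore families are shown because they tie families described below together. Bases run 5′ to 3′ along the coding strand of the reference, and capitals mark the codons of the signature.
KCNJ16: caaaccACCATAGGATATGGTtatcgc
KCNK16, first site: gtcactACCATAGGATATGGGaacctg
KCNK16, second site: ctcagcACCATTGGCTTTGGGgactat
KCNS3: atgacaACTGTGGGCTATGGAgacacc
KCNH6: ctcaccAGCGTGGGCTTCGGCaatgtc
On GRCh37, the capitals of KCNJ16 lie in exon 4 at chr17:68128619-68128633 (plus strand). The first KCNK16 site is split between exons 2 and 3 (chr6:39285721-39286801, minus strand) and the second lies in exon 4 (chr6:39284571-39284585). All of these positions are in coding exons of the transcripts used, as are those of KCNS3 (exon 3, chr2:18113383-18113397) and KCNH6 (exon 6, chr17:61613354-61613368). KCNH6 and the second KCNK16 site carry the phenylalanine codon of the signature, and the other sites shown carry the tyrosine codon.

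Levels are given as FPKM, fragments normalized to exon length in kilobases and to the size of the library, with the lower and upper bound that the authors deposited. Their confidence level is not given in the sources used here, and they describe the precision within a library, not the spread between samples. The files hold FPKM and no counts, so that depth had to be inferred. Steps in the low values of genes with a single transcript put 1 fragment at 0.01002 FPKM kb in live and 0.0107 FPKM kb in processed cells, so the processed library was slightly shallower. By this scale and the longest annotated transcript, the 58 members that reached 1 FPKM had a median of about 1471 fragments in live and 1283 in processed cells. The upper bound lay a median of 8.98% above the FPKM value in live and 9.06% in processed cells. All 131 members had the status OK in both libraries. The labelled cell state was visible in both libraries, with 98.3 and 121 FPKM of insulin (INS) in live and processed cells. All 8 endocrine markers examined reached at least 6.65 FPKM in either library. Markers of other cells were present too, with liver markers from 42.3 to 550 FPKM, pluripotency markers from 1.27 to 119 FPKM, stromal markers from 1.17 to 31.9 FPKM, muscle markers from 0.0528 to 28.4 FPKM and neuronal markers up to 149 FPKM, whereas the blood cell gene PTPRC had 0.174 FPKM in live cells and was listed at 0 in processed cells. In such a mixed culture, fewer cells of a type and less RNA per cell cannot be told apart.

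At least 1 FPKM in one library was reached by 58 of the 131 members (44.3%), compared with 31.1% of all genes and 70.8% of protein-coding genes. Each library had 50 members at this level, of which 42 were shared. Another 51 members stayed under 1 FPKM in both libraries but reached 0.1 FPKM in one, and 22 stayed under 0.1 FPKM in both. No more than 7 members reached 10 FPKM in one library. The channel genes together made up 0.0603% of the summed FPKM of live cells and 0.0604% of that of processed cells. They were thus low-abundance transcripts, and members at 1 FPKM had a median mean level of 2.81 FPKM against 10.8 FPKM for protein-coding genes passing the same filter. Channel genes at this level also spanned longer stretches of the genome, with a median of 68.3 kb against 32.8 kb.

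The highest level was that of CACNB3, a cytoplasmic beta subunit of voltage-gated calcium channels, with 37.4 FPKM in live cells (bounds 36.2 to 38.6) and 38.6 FPKM in processed cells (36.8 to 40.4). Next came CACNA1H, the pore of a T-type calcium channel that opens near the resting voltage, with 22.4 FPKM in live cells and 24.6 in processed cells. KCNK16, a two-pore potassium channel activated by alkaline pH and known for its expression in islets, had 16.5 and 15.2 FPKM. CACNG4, of the gamma subunit family, had 15.7 and 14.1 FPKM. KCNIP1, a calcium-binding protein that associates with the KCND pores, had 13.6 and 14.1 FPKM. KCNJ16 (10.1 and 9.91 FPKM), CACNA1A (8.85 and 9.29 FPKM), KCNN1 (8.41 and 6.65 FPKM) and KCNH6 (6.53 and 7.35 FPKM) were also among the 10 members with the highest mean. The 10 members with the highest mean carried 48.8% of the summed channel FPKM in live cells and 49.8% in processed cells. The 10 highest members of the live library and the 10 highest of the processed library had 8 genes in common. Neighbours in this order were often not separated by their bounds, such as KCNK16 and CACNG4 within the live library, whereas CACNB3 and CACNA1H stood apart from each other and from the rest in both.

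**Figure D1:**
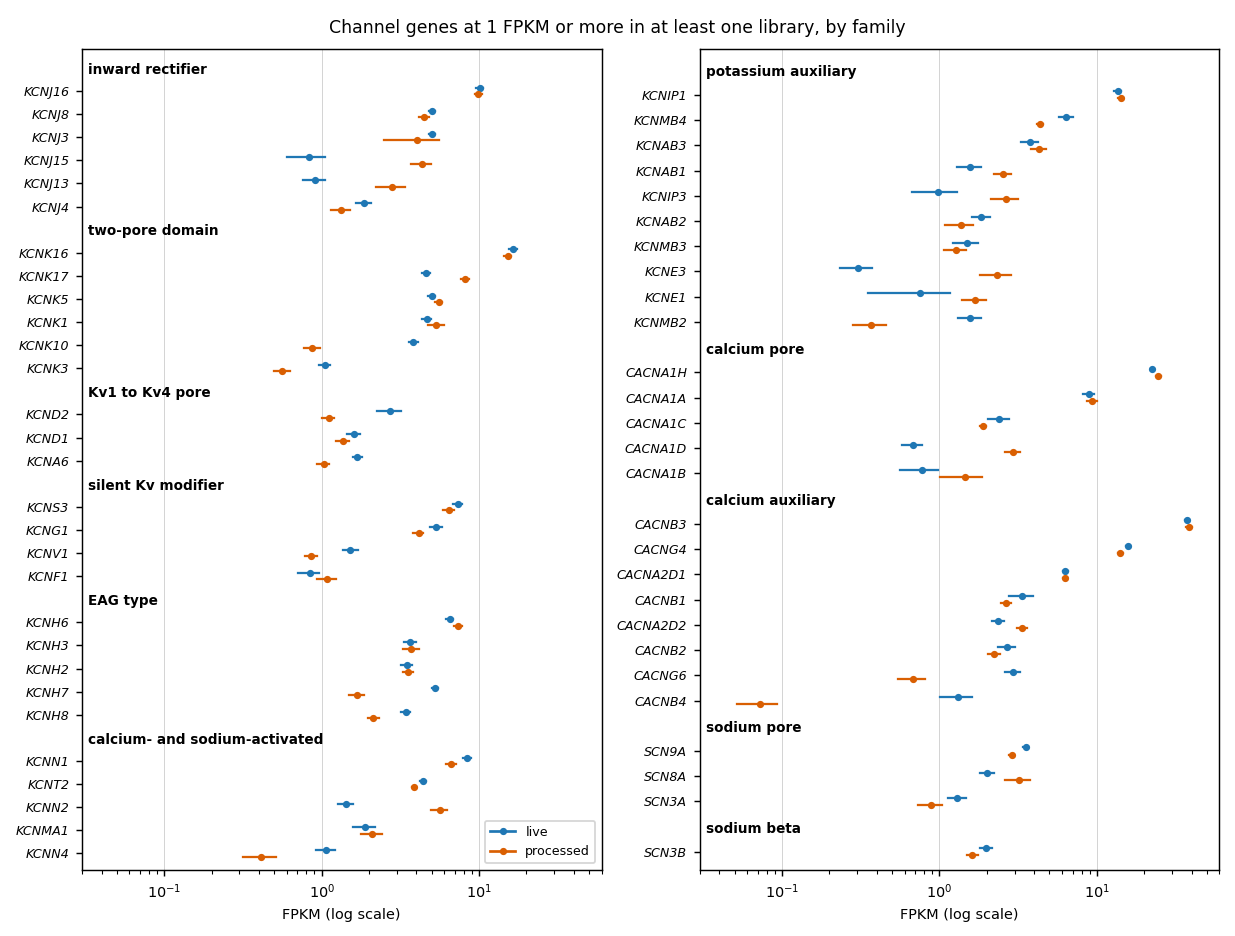
FPKM on a log axis of 56 of the 58 channel genes that reached 1 FPKM in at least one library, grouped by family, with live cells in blue and processed cells in orange (1 library each). Points are the deposited FPKM and lines run from the lower to the upper bound. The points of both libraries lie close together for the highest members, such as CACNB3 at 37.4 and 38.6 FPKM, and farthest apart for low members such as CACNB4 at 1.31 and 0.0720 FPKM.

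Among the inward rectifiers, which pass potassium more easily into the cell than out of it, 6 of 14 genes reached 1 FPKM. KCNJ16 is a subunit that works together with KCNJ10 or KCNJ15, and its level was close in both libraries. Of these partners, KCNJ10 had 0.0201 FPKM in live cells and was listed at 0 in processed cells. KCNJ15 (chr21:39529128-39673748) had 0.828 FPKM in live cells (0.598 to 1.06) and 4.34 FPKM in processed cells (3.71 to 4.98), a log2 ratio of 1.55 and the largest of all members in the direction of processed cells. KCNJ8, a pore that pairs with sulfonylurea receptors, had 5.04 and 4.48 FPKM with overlapping bounds. KCNJ3, a subunit of the channels opened by G proteins, had 5.02 FPKM in live cells (4.79 to 5.26) and 4.03 FPKM in processed cells, where its bounds were wide (2.49 to 5.57). KCNJ6, another subunit of that channel, had 0.932 FPKM in live cells and 0.411 in processed cells.

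Two-pore domain genes encode background channels that set the resting voltage, and 6 of 15 reached 1 FPKM. KCNK16 and KCNK17, which encode related alkaline-activated channels, lie side by side on chromosome 6 with a gap of 144 bp between their annotated spans. Their differences were unlike, since KCNK16 had 16.5 FPKM in live cells (15.5 to 17.5) and 15.2 FPKM in processed cells (14.4 to 16.0), whereas KCNK17 had 4.61 FPKM (4.35 to 4.87) and 8.11 FPKM (7.62 to 8.59). The bounds overlapped for KCNK16 and were separate for KCNK17, with log2 ratios of -0.11 and 0.70. The value of KCNK16 was thus near the median of protein-coding genes at 1 FPKM, which was also -0.11. KCNK5, a channel sensitive to alkaline pH, lies 69.55 kb from KCNK17 and had 4.99 and 5.54 FPKM. KCNK10, a channel gated by membrane stretch and lipids (chr14:88649113-88793251), had 3.83 FPKM in live cells (3.60 to 4.06) and 0.874 FPKM in processed cells (0.769 to 0.978), and its log2 ratio of -1.37 was the lowest of all 58 members at 1 FPKM. KCNK3, an acid-sensitive background channel, had 1.05 and 0.564 FPKM.

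The voltage-gated pores of the KCNA to KCND genes (Kv1 to Kv4) were low, with 4 of 17 at 1 FPKM. KCND2, which carries a transient current, had 2.71 and 1.11 FPKM, a log2 ratio of -0.82 within the 2-fold lines, and KCND1 had 1.60 and 1.37 FPKM. KCND3 had 0.804 and 0.306 FPKM. The silent modifiers (KCNF, KCNG, KCNS and KCNV) need a KCNB pore to form a channel. Of 10 such genes 4 reached 1 FPKM, with KCNS3 at 7.32 and 6.44 FPKM, KCNG1 at 5.34 and 4.13 FPKM and KCNV1 at 1.53 and 0.860 FPKM. KCNG2 had 0.562 FPKM in live cells (0.431 to 0.694) and was listed at 0 in processed cells.

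Of 4 KCNQ genes, which encode slow voltage-gated channels, 1 reached 1 FPKM. KCNQ3 had 0.238 FPKM in live cells and 0.00209 in processed cells. The EAG type genes encode voltage-gated channels with a cyclic nucleotide-binding homology domain, and 5 of 8 reached 1 FPKM. The related genes KCNH2, KCNH6 and KCNH7 (the erg group) had unlike differences. KCNH2 had 3.47 and 3.55 FPKM with overlapping bounds. KCNH6 had 6.53 FPKM in live cells (6.19 to 6.86) and 7.35 FPKM in processed cells (6.92 to 7.79). KCNH7 (chr2:163227917-163695240) had 5.28 FPKM in live cells (5.04 to 5.52) and 1.67 FPKM in processed cells (1.48 to 1.86), a log2 ratio of -1.23. Its annotated span overlaps that of GCA on the opposite strand, which had 25.2 FPKM in live cells and 24.7 in processed cells, and the part of this overlap in the KCNH7 values was not tested. KCNH3 had 3.67 and 3.72 FPKM.

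Calcium- and sodium-activated genes link potassium flow to calcium or sodium inside the cell, and 5 of 8 reached 1 FPKM. The small-conductance channel genes KCNN1 and KCNN2 differed in opposite directions. KCNN1 had 8.41 FPKM in live cells (7.93 to 8.90) and 6.65 FPKM in processed cells (6.17 to 7.13), whereas KCNN2 (chr5:113696666-113832321) had 1.43 FPKM (1.27 to 1.59) and 5.62 FPKM (4.96 to 6.28), a log2 ratio of 1.45. KCNN1 therefore carried 47.6% of the family's summed FPKM in live and 35.2% in processed cells. KCNN3 had 0.264 and 0.00973 FPKM, and the intermediate-conductance gene KCNN4 had 1.06 and 0.414 FPKM. KCNMA1, the pore of the large-conductance channel, had 1.88 and 2.09 FPKM with overlapping bounds, and KCNT2, a sodium-activated channel, had 4.41 and 3.86 FPKM.

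The auxiliary potassium genes had the largest share of members at 1 FPKM of the 12 families, with 10 of 15. KCNIP1 carried 39.5% of the family's summed FPKM in live and 39.3% in processed cells. KCNMB1, a beta subunit gene whose span lies within that of KCNIP1, was listed at 0 in both libraries. KCNMB4, a beta subunit of the large-conductance channel, had 6.36 FPKM in live cells (5.71 to 7.02) and 4.36 FPKM in processed cells (4.15 to 4.56), and its level was above that of the pore KCNMA1 in both. KCNAB3, a cytoplasmic beta subunit of voltage-gated channels, had 3.78 and 4.29 FPKM. KCNE3, a single-span subunit best known as a partner of KCNQ pores (chr11:74165886-74178774), had 0.303 FPKM in live cells (0.233 to 0.374) and 2.33 FPKM in processed cells (1.82 to 2.85), a log2 ratio of 1.36. This was the largest ratio of FPKM values without a pseudocount among the members higher than 2-fold in processed cells, at 7.70-fold.

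Calcium pores define the current types, and 5 of 10 reached 1 FPKM. CACNA1H carried 60.8% of the summed FPKM of this family in live cells and 59.5% in processed cells. CACNA1A, the pore of the P/Q-type current that couples to release sites, had 8.85 FPKM in live cells (8.12 to 9.58) and 9.29 FPKM in processed cells (8.62 to 9.95). The L-type pores, which carry much of the calcium that triggers insulin release, differed in direction. CACNA1C had 2.40 and 1.89 FPKM, whereas CACNA1D (chr3:53528683-53846490) had 0.676 FPKM in live cells (0.576 to 0.776) and 2.93 FPKM in processed cells (2.62 to 3.24), a log2 ratio of 1.23. CACNA1C was thus the higher of these L-type genes in live cells and CACNA1D in processed cells, with separate bounds in each library. The annotated span of CACNA1C overlaps those of DCP1B (10.4 and 6.73 FPKM) and CACNA1C-AS2 (1.18 and 0.282 FPKM) on the opposite strand. The part of these overlaps in the CACNA1C values was not tested. The R-type gene CACNA1E had 0.198 FPKM in live cells and a value near 0 in processed cells.

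Calcium auxiliary genes had the largest summed level of the 12 families, at 74.6 FPKM in live cells and 68.5 in processed cells, and 8 of 16 reached 1 FPKM. CACNB3 alone carried 50.1% of this sum in live and 56.4% in processed cells. CACNB2, a beta subunit also known from beta cells, had 2.69 and 2.23 FPKM. CACNB4 (chr2:152689290-152955593) had 1.31 FPKM in live cells (1.02 to 1.60) and 0.0720 FPKM in processed cells (0.0515 to 0.0925), a log2 ratio of -1.11 that the pseudocount holds near the 2-fold line. CACNA2D1, an extracellular subunit that promotes surface expression of the pores, had 6.31 and 6.27 FPKM with overlapping bounds. CACNG6 (chr19:54495542-54515923) had 2.93 FPKM in live cells (2.61 to 3.25) and 0.679 FPKM in processed cells (0.546 to 0.812), a log2 ratio of -1.23.

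Sodium channel genes were the lowest group, with a summed level of 11.6 FPKM in live cells and 11.2 in processed cells over 14 genes. Among the pores, 3 of 10 reached 1 FPKM. SCN9A, known from sensory neurons and from islet cells, led with 3.53 FPKM in live cells (3.41 to 3.65) and 2.88 FPKM in processed cells (2.76 to 2.99). SCN8A had 2.01 FPKM (1.80 to 2.21) and 3.20 FPKM (2.62 to 3.78), so that SCN9A was above SCN8A in live cells with separate bounds, whereas their bounds overlapped in processed cells. A processed pseudogene at 8.31 and 3.35 FPKM lies within the span of SCN8A, and its part in these values was not tested. SCN3A had 1.30 and 0.885 FPKM. The only beta subunit gene at 1 FPKM was SCN3B with 1.98 and 1.62 FPKM.

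Summed by family, the levels of live and processed cells differed by less than those of many single genes. The ratio of processed to live summed FPKM was 0.980 over all 131 members and ranged from 0.801 for the sodium beta subunits to 1.12 for the calcium pores. It was above 1 in 5 families and below 1 in 7. Dividing processed FPKM by the median ratio of all genes at 1 FPKM in both libraries, 0.932, left 5 of these 7 families below 1 and turned the two-pore domain genes from 0.971 to 1.04 and the KCNA to KCND pores from 0.982 to 1.05. Under the same scaling the total of all members turned to 1.05. The family ratios rested in part on the highest members. When the member with the highest mean FPKM of each family was left out, without scaling, the ratios ranged from 0.674 to 1.32. The lowest was that of the KCNQ genes, whose other members were under 1 FPKM, and the highest that of the calcium- and sodium-activated genes. With FPKM as deposited, the ratio of the calcium pores was 1.16 without CACNA1H, 1.06 without CACNA1D and 1.0045 without both genes, of which the settings that leave out CACNA1D were chosen after seeing the data. Without the calcium pores that overlap another gene at 1 FPKM, CACNA1H among them, the ratio was 1.29. The size of this ratio thus depended on the members included. The EAG type genes had a ratio of 0.823 with and 0.959 without the members that overlap another gene at 1 FPKM, KCNH3 and KCNH7 among them. The sodium pores turned from 1.02 to 0.846 without such overlapping members, SCN8A among them.

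**Figure D2:**
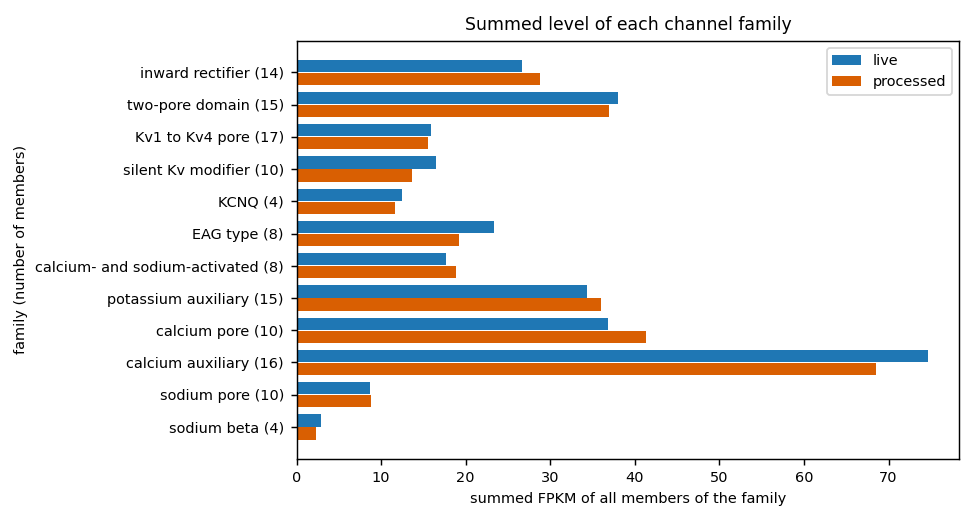
Summed FPKM of all members of each of the 12 channel families (number of members in brackets) in live cells (blue) and processed cells (orange), 1 library each and therefore without error bars. The calcium auxiliary genes have the highest sums, 74.6 and 68.5 FPKM, and the bars of the libraries lie close together in each family, with ratios from 0.801 to 1.12. Without the member with the highest mean FPKM of each family, which is not drawn, the ratios ran from 0.674 to 1.32.

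Differences between single genes were given as log2((processed FPKM + 1) / (live FPKM + 1)), which understates the difference of low genes. Past 2-fold on this scale were 8 of the 58 members at 1 FPKM (13.8%), compared with 12.8% of all 17326 genes passing the same filter and 6.68% of protein-coding genes. Higher in processed cells were KCNJ15, KCNN2, KCNE3 and CACNA1D, which is 4 of 58 (6.90%) beside 6.57% of all genes and 3.15% of protein-coding genes. Lower in processed cells were KCNK10, KCNH7, CACNG6 and CACNB4, again 4 of 58 beside 6.19% of all genes and 3.53% of protein-coding genes. The share of channel genes past 2-fold was thus near the background of all genes and above that of protein-coding genes, and the level of the genes differed between these sets. Without genes that overlap another gene at 1 FPKM, 15.9% of the remaining 44 members and 10.2% of all genes were past 2-fold. Among members with a mean under 5 FPKM, 8 of 42 (19.0%) were past 2-fold, beside 25.9% of all and 15.7% of protein-coding genes in the same range. Of the 16 members with a mean of at least 5 FPKM, 0 were past 2-fold, beside 4.98% of all and 3.09% of protein-coding genes, and their log2 ratios ran from -0.46 for KCNMB4 to 0.70 for KCNK17. The plot of the difference against level shows all 8 genes at the low end of the range.

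**Figure D3:**
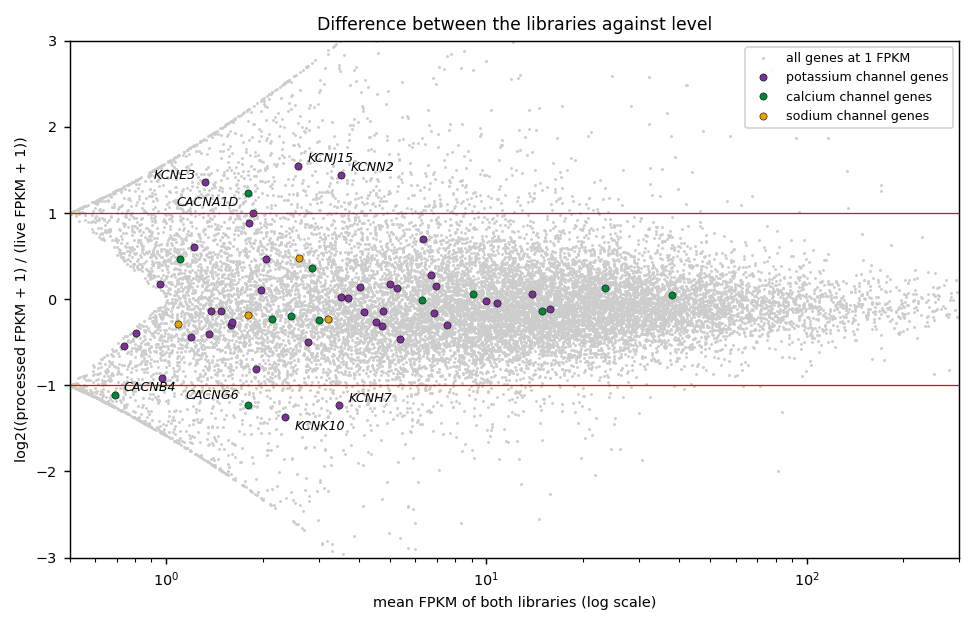
Log2 ratio of processed to live FPKM (pseudocount of 1) against the mean FPKM of both libraries on a log axis, for all 17326 genes at 1 FPKM in at least one library (grey) and for the potassium, calcium and sodium channel genes among them (coloured). Red lines mark 2-fold, genes beyond 3 on the log2 axis or above 300 FPKM are outside the frame, and the 8 named members lie outside the red lines, all with a mean under 5 FPKM.

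For all 8 genes the bounds of the libraries were separate. Separate bounds were not particular to large differences, since they were found for 37 of 58 members (63.8%), 71.8% of all genes and 72.5% of protein-coding genes at 1 FPKM. Of the 8, KCNH7 overlaps another gene at 1 FPKM, as do 13 of the 50 members within 2-fold. Together these are 24.1% of the 58 members, beside 35.9% of protein-coding genes at 1 FPKM. The part of overlaps in the 2-fold calls was not tested. A member just inside the 2-fold line was KCNJ13, an epithelial inward rectifier, which had 0.908 and 2.81 FPKM and a log2 ratio of 0.999. Its span overlaps GIGYF2 on the opposite strand, which had 16.6 and 10.3 FPKM, and the part of this overlap was not tested. Neuronal markers are given beside these genes because several of the channels are also used by neurons. Over 9 rows of 8 neuronal marker genes, 7 had a lower value in processed cells, 0 were past 2-fold, and the summed level was 213 FPKM in live cells and 178 in processed cells. Of all genes, 58.3% had a log2 ratio below 0. Other marker lists held genes past 2-fold in both directions, with log2 ratios of -1.28 for PDGFRB and 1.37 for DCN among 6 stromal markers, -1.05 for ACTA2 and 1.29 for DES among 6 muscle markers and 1.88 for NANOG among 4 pluripotency markers, whereas 0 of 4 liver and 0 of 8 endocrine markers were past 2-fold. Of the 4 pluripotency markers, 2 had a log2 ratio below 0, and their summed level was 181 FPKM in live cells and 152 in processed cells. The part of any of these cells in the values of the 8 channel genes was not tested.

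The median log2 ratio of the 58 members was -0.12, close to the -0.09 of all genes and the -0.11 of protein-coding genes passing the same filter. A log2 ratio below 0 was found for 33 of 58 members (56.9%), beside 58.3% of all genes and 61.4% of protein-coding genes. The median was 0.01 after division by the median ratio of all genes, which moved the median of all genes to 0.00. The median absolute log2 ratio was 0.28 for channel genes, 0.34 for all genes and 0.29 for protein-coding genes. By family, the median was below 0 in 8 families and above 0 in 4. It ran from -0.27 for the KCNA to KCND pores (4 genes) to 0.13 for the calcium pores (5 genes), a range well inside the spread among members of a single family. This order depended on the settings, since the KCNA to KCND pores were at -0.07 after division by the median ratio, where the sodium pores were lowest at -0.15, and at -0.47 without overlapping genes, where the calcium pores were at 0.46. At a minimum of 3 FPKM, the median of the KCNA to KCND pores turned to 0.28. The two-pore domain genes, for example, ran from -1.37 to 0.70 and the auxiliary potassium genes from -0.91 to 1.36. Across all 131 members, log2(FPKM + 1) of live and processed cells had a Pearson correlation of 0.921 and FPKM a Spearman correlation of 0.885, both across genes, which are not independent replicates.

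**Figure D4:**
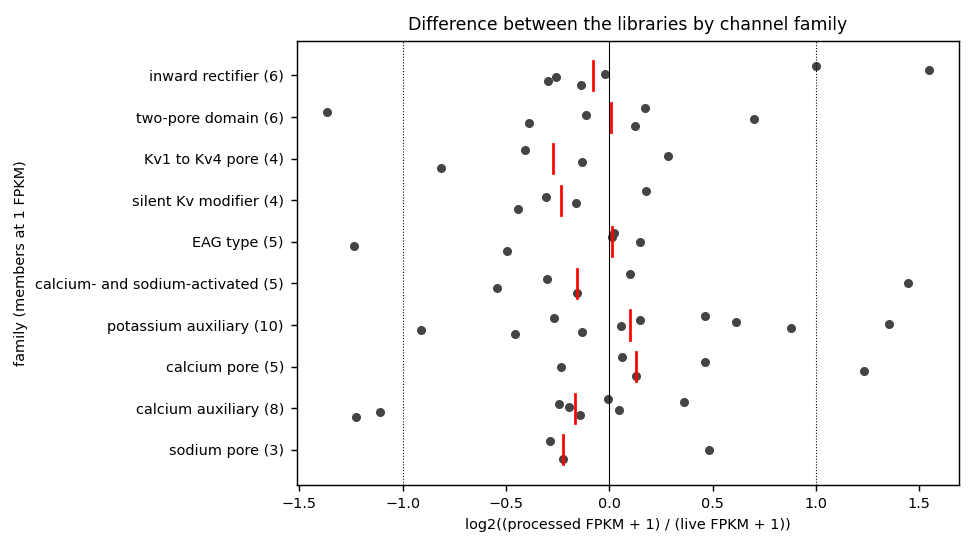
Log2 ratio of processed to live FPKM (pseudocount of 1) of each member at 1 FPKM, for the 10 families with more than 1 such member, with the number of such members in brackets. Points are genes, red bars are family medians and dotted lines mark 2-fold. The medians lie between -0.27 and 0.13, whereas the points of the two-pore domain family spread from -1.37 to 0.70.

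Absence was more frequent in the processed library. Of 123 members above 0 in live cells, 14 (11.4%) were listed at 0 in processed cells, compared with 18.1% of all genes and 7.2% of protein-coding genes. Of 109 members above 0 in processed cells, 0 were listed at 0 in live cells, beside 3.89% of all genes and 0.99% of protein-coding genes. Most of the 14 were scarcely detected in live cells, with a median of 0.0176 FPKM and a highest value of 0.562 FPKM for KCNG2. The lowest value was 2.94e-113 FPKM, which is 0 in practice. Among members of at least 0.1 FPKM in live cells, 3 of 102 (2.94%) were listed at 0 in processed cells, beside 8.37% of all genes and 3.13% of protein-coding genes. These were KCNG2, CACNG5 and KCNK9, of which CACNG5 and KCNK9 were named after their values were seen, with 0.397 and 0.194 FPKM in live cells. An exact 0 can be a failed estimate, so no fold is given. Listed at 0 in both libraries were 8 members, among them KCNMB1 and the renal inward rectifier KCNJ1.

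Of 26 channel genes listed for their known use in islet beta cells, 20 reached 1 FPKM. KCNN2 and CACNA1D were the genes of this list that were higher than 2-fold in processed cells, and 0 were lower than 2-fold. This is 10% of the 20 genes, beside 12.8% of all genes and 6.68% of protein-coding genes. The absence of lower genes depended on the pseudocount of 1. With a pseudocount of 0.1, KCNN4 was lower than 2-fold at -1.18, while KCNN2 (1.90) and CACNA1D (1.97) stayed higher. The median log2 ratio of the 20 genes was 0.01, and 12 of them had separate bounds, beside 71.8% of all genes. Their summed level was 147 FPKM in live cells and 154 in processed cells. Other ion transport genes that work with these channels were examined as a list of 44, which includes sodium pumps, calcium pumps, store-operated and intracellular calcium channels and pacemaker channels. Of these 30 reached 1 FPKM, 1 was higher and 2 were lower than 2-fold (10%, beside 12.8% of all and 6.68% of protein-coding genes), and the median log2 ratio was -0.03. The gene past 2-fold upward was TPCN2, a lysosomal cation channel, with 3.64 FPKM in live cells (3.33 to 3.94) and 10.9 FPKM in processed cells (9.82 to 12.02). The genes past 2-fold downward were ORAI2, a store-operated calcium channel, with 9.15 and 2.47 FPKM, and TRPC1, a cation channel, with 8.14 and 3.20 FPKM. ORAI1, the main pore of store-operated calcium entry, had 11.0 and 5.40 FPKM. Within the 2-fold lines were also ITPR2, an inositol trisphosphate receptor, with 1.87 and 4.08 FPKM, and DPP10, an auxiliary protein of the KCND pores, with 11.3 and 20.4 FPKM. ABCC8, the sulfonylurea receptor that regulates ATP-sensitive potassium channels in beta cells, had 24.5 FPKM in live cells (22.8 to 26.2) and 43.1 FPKM in processed cells (40.4 to 45.8), a log2 ratio of 0.79.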

How the data were processed

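Paired reads of 80 nt from poly-A purified RNA of 1 live and 1 processed sample were aligned by the authors to GRCh37/hg19 with STAR 2.2.0c and GENCODE 14, and the deposited FPKM values with their bounds were made with Cufflinks 2.0.2 by maximum likelihood, with no pooling. FPKM is normalized to exon length and library, so depth is not given directly. The step of 1 fragment was read from genes with 1 transcript of over 300 nt, using FPKM times the transcript length less 170 nt.

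Genes were joined by Ensembl identifier, since 5489 of 55797 stood in the same row in both files. Starts were raised by 1 to be 1-based. Calculations used Python 3.11.15, numpy 2.4.6, pandas 2.3.3 and matplotlib 3.10.9, and were tested on simulated data. Gene type, transcript length, strand and coding sequence came from GENCODE release 44 on GRCh37, later than that of the authors, which held all 131 members and 94.5% of all identifiers. Overlaps used the gene spans in the files, and whether the counting used strand is not given in the sources used here. Log2 ratios used a pseudocount of 1 and a minimum of 1 FPKM in one library.

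Named were the 10 members with the highest mean, the 3 highest of each family that reached 0.5 FPKM, all past 2-fold, members at 0 in one library and at least 0.5 FPKM in the other, a list of beta cell channels, and the 3 largest differences in each direction in the related list. Members and lists were chosen with earlier results of these data known. Genes outside this rule appear only as partners or neighbours of a named gene and were chosen after their values were seen. Some members that the rule names are not reported here and not drawn by name, but are included in counts and sums.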

Additional observations from a re-analysis of the deposited data

How the results depend on the processing

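No paired analysis was possible because each group has 1 sample, and no replicate could be left out. With a pseudocount of 0.1, 7 members were higher and 7 lower than 2-fold, including the 4 and 4 of the report (24.1% of members, 20.0% of all genes), and 5 related ion transport genes were past 2-fold. Raising the minimum to 3 FPKM left 33 members, 2 higher and 2 lower than 2-fold (12.1% beside 9.10% of all genes), 18 with separate bounds, a median log2 ratio of -0.00705 and 5 families with a median below 0. Without a minimum, 85 of the 123 members above 0 in one library had separate bounds. The share of all genes with separate bounds was not computed under these settings, so the counts are not a result about channel genes. Dividing processed FPKM by the median ratio moved the median log2 ratio of channel genes to 0.0136. The split of the 2-fold counts was 4 and 3 without overlapping genes (15.9% beside 10.2%), and 5 and 4 under either rescaling (15% beside 13.2% with the median ratio, 15.3% beside 12.9% with the live sum), where KCNJ13 was added. No gene past 2-fold changed its sign under the other pseudocount or the rescalings. That outcome was fixed in advance, because a pseudocount keeps the direction and both rescalings were far smaller than 2-fold. The number of families with a median below 0 was 6 with the median ratio and 11 without a minimum. Among 51 named members, 3 changed sign under the median ratio and 2 under the live sum. With the pseudocount of 0.1, 19 had a log2 ratio outside the range that their bounds give with a pseudocount of 1. That range is on another scale, so low genes can leave it with their FPKM unchanged. The ratios of summed FPKM stayed within 1.5 times the main value under every setting run. No difference has a replicate error.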

Other observations

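Several channel genes lie in clusters, and neighbours in a cluster had unlike levels. On chromosome 17, CACNG4 had 15.7 FPKM in live cells and 14.1 in processed cells, whereas CACNG5, 79.4 kb away, had 0.397 FPKM in live cells and was listed at 0 in processed cells, and CACNG1, 11.2 kb away on the other side, was listed at 0 in both. KCNJ16 had 10.1 and 9.91 FPKM and its neighbour KCNJ2, 33.1 kb away, 0.762 and 0.356 FPKM. In the chromosome 19 cluster of CACNG7, CACNG8 and CACNG6, all 3 genes had lower values in processed cells, with 0.640 and 0.00157 FPKM for CACNG7 and 0.129 and 0.0503 FPKM for CACNG8. In the sodium channel cluster of chromosome 2, SCN3A, SCN9A and SCN7A had lower values in processed cells, whereas SCN1A (0.0547 and 0.358 FPKM) and SCN2A (0.0933 and 0.361 FPKM) had higher ones, both at low levels. The genes of this paragraph were chosen by position after their values were seen.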
